A study of Mus musculus with 2 samples.

Results

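The genes described here are noncoding hosts of small nucleolar RNAs (snoRNAs), that is, genes whose introns carry snoRNAs and whose spliced transcripts encode no known protein. They were chosen by name as the count rows of Gas5, Zfas1, Snhg1, Snhg3, Snhg5, Snhg6, Snhg8 and Snhg12. Of these 8 genes, 6 had a row among the 43629 genes listed for each library. Snhg1 (ENSMUSG00000108414) and Snhg8 (ENSMUSG00000104960) had no row under the identifiers used here, so their own levels were not analysed here, and they are described through the snoRNAs and the neighbouring gene that did have rows.

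The data are polyA RNA sequencing of 2 Dicer_KO libraries of mouse embryonic stem cells (mESCs) with a 129/Ola background, replicate 1 at passage 7 and replicate 2 at passage 4. Dicer_KO mESCs carry deletions within Dicer1, the RNase III enzyme that makes microRNAs, made in E14TG2a cells with pairs of CRISPR/Cas9 guides. They were grown from sorted single cells, so a line is a clone, and mESCs were routinely kept in serum with the cytokine LIF. The labels do not say which deletion each library carries. Both libraries are of the same genotype label and WT mESCs were not analysed here. The only comparison is therefore replicate 1 against replicate 2, in which clone, deletion, passage and library cannot be told apart, and which has no test because there is 1 library on each side.

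snoRNAs guide the chemical modification of ribosomal and spliceosomal RNA. Those with boxes C and D direct 2′-O-methylation, and those with boxes H and ACA direct the conversion of uridine to pseudouridine or, for a few, the cutting of the ribosomal RNA precursor. Most mammalian snoRNAs are released from the introns of a host gene after splicing, and many noncoding hosts share with ribosomal protein genes a transcription start within a run of pyrimidines (a 5′ terminal oligopyrimidine tract, TOP), which ties translation of the transcript to the kinase mTORC1. The spliced host RNAs are typically short-lived because ribosomes meet an early stop codon on them and they are removed by nonsense-mediated decay (NMD). Gas5 takes its name from growth arrest, during which its RNA accumulates.

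The snoRNA sequences inside the hosts are shown first, so that the snoRNAs whose rows had counts can be read beside examples whose rows had none. The sequences below are from GENCODE M21 on GRCm38, written 5′ to 3′, with capitals marking box C (TGATGA within the first 20 bases) and box D (CTGA within the last 15 bases) where both were found, or otherwise the ACA box (ACA within the last 8 bases). Only the given strand was searched, since the letters are read in the RNA. The 5 below are all the snoRNAs inside the 8 hosts that had counts.
Snora73b (chr4:132352322-132352526, minus strand, in Snhg3): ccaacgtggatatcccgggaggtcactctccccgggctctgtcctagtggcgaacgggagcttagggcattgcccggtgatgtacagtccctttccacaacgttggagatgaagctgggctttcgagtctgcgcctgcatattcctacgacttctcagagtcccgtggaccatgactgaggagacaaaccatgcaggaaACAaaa
Snora73a (chr4:132352775-132352979, minus strand, in Snhg3): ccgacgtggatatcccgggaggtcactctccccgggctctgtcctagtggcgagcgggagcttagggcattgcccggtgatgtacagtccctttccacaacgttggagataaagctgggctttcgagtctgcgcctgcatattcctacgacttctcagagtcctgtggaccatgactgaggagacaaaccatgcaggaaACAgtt
Snora24 (chr3:123507937-123508066, minus strand, in Snhg8): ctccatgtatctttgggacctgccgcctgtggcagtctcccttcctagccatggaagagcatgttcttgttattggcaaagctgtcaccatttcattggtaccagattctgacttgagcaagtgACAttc
Snora16a (chr4:132309465-132309600, plus strand, in Snhg12): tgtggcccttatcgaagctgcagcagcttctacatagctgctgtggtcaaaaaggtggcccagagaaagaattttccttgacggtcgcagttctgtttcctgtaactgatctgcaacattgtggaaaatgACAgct
Snord87 (chr1:9942463-9942549, minus strand, in Snhg6): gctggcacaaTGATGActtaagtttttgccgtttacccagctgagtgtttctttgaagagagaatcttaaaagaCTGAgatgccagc
Of these, 4 hold an ACA box and no pair of boxes C and D, and Snord87 holds boxes C and D. Snora73a and Snora73b were identical in 198 of 205 aligned bases (96.6%), so reads may be shared between them and their separate counts are uncertain.

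The next 4 are examples of snoRNAs listed at 0 in both libraries. They are the pair in Snhg5 and a snoRNA each of Gas5 and Zfas1.
Snord50a (chr9:88521529-88521600, minus strand, in Snhg5): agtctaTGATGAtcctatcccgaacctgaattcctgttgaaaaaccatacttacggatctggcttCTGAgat
Snord50b (chr9:88521797-88521868, minus strand, in Snhg5): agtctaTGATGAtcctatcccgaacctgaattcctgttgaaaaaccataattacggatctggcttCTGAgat
Snord47 (chr1:161038082-161038158, plus strand, in Gas5): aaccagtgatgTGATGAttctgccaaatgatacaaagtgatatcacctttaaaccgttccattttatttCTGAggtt
Snord12 (chr2:167065276-167065365, plus strand, in Zfas1): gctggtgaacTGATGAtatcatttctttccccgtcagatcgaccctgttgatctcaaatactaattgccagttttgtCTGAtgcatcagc
All 4 of these hold boxes C and D, but they were picked after the values were seen and do not stand for every row at 0. Of the 25 rows at 0, the search found boxes C and D in 18, an ACA box in 1 (Snora61) and neither in 6. Snord50a and Snord50b were identical in 71 of 72 aligned bases (98.6%), so their rows at 0 are uncertain as well.

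Among the 32 snoRNA genes annotated inside the 8 hosts on the same strand, 20 (62.5%) held boxes C and D and 6 (18.8%) held an ACA box by this search. Over all 1558 snoRNA genes of the annotation the shares were 19.9% and 46.4%. These are annotation entries, not distinct snoRNAs. Snord80 of Gas5 and Snora16a of Snhg12 are each entered again under another identifier, without a row, at overlapping bases. An entry in Gas5 typed as a snoRNA is named Mir5117. The search windows were set after the sequences had been seen, and degenerate boxes are missed by it, as in Snord78 of Gas5 and Snord22 of Snhg1. Snora44 of Snhg12, an H/ACA snoRNA by its name, was likewise placed in neither class.

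The starts of the hosts are shown because the sequence at the start is a feature that the choice by name did not use. The windows run from 45 bases before the start to the first 15 bases from it on, from RefSeq starts on GRCm38.p6, 5′ to 3′ on the strand of the gene. Capitals mark TATAAA or TATATA lying between 45 and 15 bases before the start. They also mark a C followed by at least 4 pyrimidines within 15 bases of the start on either side. A marked run need not hold the first transcribed base, so it is not a call of a TOP start.
Gas5 (chr1:161035121-161035180, plus strand): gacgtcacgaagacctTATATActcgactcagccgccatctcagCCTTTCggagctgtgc
Snhg5 (chr9:88522883-88522942, minus strand): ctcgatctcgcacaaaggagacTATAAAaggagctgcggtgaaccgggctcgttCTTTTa
Snhg8 (chr3:123508322-123508381, minus strand): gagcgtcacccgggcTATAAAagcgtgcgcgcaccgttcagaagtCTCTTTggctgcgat
Snhg12 (chr4:132308633-132308692, plus strand): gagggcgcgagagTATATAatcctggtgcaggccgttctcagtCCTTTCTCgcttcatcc
Snhg3 (chr4:132353672-132353731, minus strand): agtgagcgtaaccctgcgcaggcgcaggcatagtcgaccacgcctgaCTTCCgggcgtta
Zfas1 (chr2:167062889-167062948, plus strand): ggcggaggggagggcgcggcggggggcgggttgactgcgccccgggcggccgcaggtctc
RefSeq gave 8 starts for 7 hosts, with a pair for Gas5 and none matched for Snhg6. The Gas5 window shown is that of the downstream start. TATAAA or TATATA was found in 4 of the 8 starts, against 971 of 32851 starts in the whole table (2.96%). The C with its pyrimidines was found in 5 of 8, against 36.4% of all starts. In Snhg5 and Snhg3 the run begins after the first transcribed base. On the other strand, 3 of 8 held TATAAA or TATATA, against 1.73% of all starts, and TATATA is its own reverse complement, so 2 of those 3 are the same letters. The pyrimidine run was found on the other strand of 40.8% of all starts. These windows were chosen after the sequences had been seen, and a match is a description of the letters only.

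The deposited values are reads counted per gene, 41710122 in replicate 1 and 41566184 in replicate 2, with at least 10 counts for 17819 and 17461 genes. Levels are given as counts per M counts on genes (CPM) with 95% Wilson confidence intervals, which cover counting error only. At this depth 3 counts correspond to 0.0719 and 0.0722 CPM. Dicer1 itself had 1343 and 1510 counts, or 32.2 CPM (30.5 to 34.0) and 36.3 CPM (34.5 to 38.2), which is a total over the whole gene and without WT mESCs checks no deletion. All 8 pluripotency markers had counts, from 3750 to 199860 in replicate 1 and from 2562 to 84835 in replicate 2, and their summed level was 9477 and 6030 CPM. Dppa5a alone gave 4792 and 2041 CPM of these sums, and by the scaled ratio 5 of the 8 markers were higher in replicate 1 and 3 in replicate 2. The 11 markers of fibroblast feeders, trophoblast, endoderm and neural cells summed to 51.6 and 37.2 CPM, with none at 0, and their part in the values below was not tested. In RNA from bulk cells, fewer cells of a type and less RNA per cell cannot be told apart.

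Gas5 and Snhg5 were the hosts with higher levels in replicate 2, Zfas1 had the largest difference and was higher in replicate 1, and Snhg3, Snhg6 and Snhg12 differed by less. Ratios below are of replicate 1 over replicate 2 on the log2 scale after TMM scaling with a pseudocount of 1, each with the exact 95% interval of the ratio of counts, which covers counting error only. Folds are taken from these ratios and so are TMM-scaled as well. CPM are scaled by total counts, so a fold differs from the quotient of the CPM printed beside it.

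Gas5 (ENSMUSG00000053332, chr1:161034422-161038539, plus strand) had 5514 counts in replicate 1 and 7569 in replicate 2, or 132 CPM (129 to 136) and 182 CPM (178 to 186). The mean was 157 ± 35.3 CPM (SD, n = 2). The CPM intervals did not overlap. After TMM scaling replicate 2 was 1.49-fold higher, with a log2 ratio of -0.58 (-0.63 to -0.53). The annotation gives Gas5 25 transcripts, of which 20 keep an intron, and its merged exons therefore cover 3760 of 4118 bases (91.3%), including the snoRNAs.

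Zfas1 (ENSMUSG00000074578, chr2:167062934-167065862, plus strand) starts against the 5′ end of Znfx1 and carries the Snord12 family. It had 6345 counts in replicate 1 and 3385 in replicate 2, or 152 CPM (148 to 156) and 81.4 CPM (78.7 to 84.2), with a mean of 117 ± 49.98 CPM (SD, n = 2). Zfas1 was the only one of the 6 hosts past 1.5-fold in replicate 1, at 1.72-fold, with a log2 ratio of 0.78 (0.72 to 0.84). Its merged exons cover all of its 2929 bases and share 82 bases with exons of Znfx1 on the other strand. Another 189 bases are shared with an annotated noncoding RNA gene, Gm27494, on the same strand, and such overlapping regions were left out of the counts by the authors where their annotation held both genes.

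Snhg5 (ENSMUSG00000097195, chr9:88521050-88522929, minus strand), host of Snord50a and Snord50b, had 2926 counts in replicate 1 and 4190 in replicate 2. These are 70.2 CPM (67.7 to 72.7) and 101 CPM (97.8 to 104), with a mean of 85.5 ± 21.7 CPM (SD, n = 2). Snhg5 lay on the same side as Gas5, 1.56-fold higher in replicate 2, with a log2 ratio of -0.64 (-0.71 to -0.57).

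Snhg6 (ENSMUSG00000098234, chr1:9941959-9944118, minus strand), host of Snord87, had 1728 and 1263 counts, or 41.4 CPM (39.5 to 43.4) and 30.4 CPM (28.8 to 32.1). The mean was 35.9 ± 7.81 CPM (SD, n = 2) and the log2 ratio 0.33 (0.22 to 0.44), 1.26-fold higher in replicate 1. Gas5 and Snhg6 are both on chromosome 1 and stood on opposite sides.

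Snhg12 (ENSMUSG00000086290, chr4:132308623-132311024, plus strand), which carries snoRNAs of both kinds, had 1418 and 1125 counts, or 34.0 CPM (32.3 to 35.8) and 27.1 CPM (25.5 to 28.7). The mean was 30.5 ± 4.90 CPM (SD, n = 2) and the log2 ratio 0.21 (0.10 to 0.33). Its CPM intervals, which are scaled by total counts, did not overlap. After TMM scaling replicate 1 was 1.16-fold higher, and by total counts the log2 ratio was 0.33.

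Snhg3 (ENSMUSG00000085241, chr4:132348014-132353686, minus strand), host of Snora73a and Snora73b, had 1549 and 1358 counts, or 37.1 CPM (35.3 to 39.0) and 32.7 CPM (31.0 to 34.5). The mean was 34.9 ± 3.16 CPM (SD, n = 2). After TMM scaling, Snhg3 was the only one of the 6 whose interval of the log2 ratio, 0.07 (-0.04 to 0.17), included 0. This depends on the scaling, since its CPM intervals did not overlap and its ratio by total counts was 0.18. Snhg3 overlaps Rcc1, the exchange factor of the GTPase Ran, on the same strand. Their exons share 135 bases, and 705 bases of Snhg3 exons are shared with Gm17300 on the other strand. Reads on overlapping regions were left out of the counts by the authors, so the count of Snhg3 rests on a part of its exons.

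**Figure D1:**
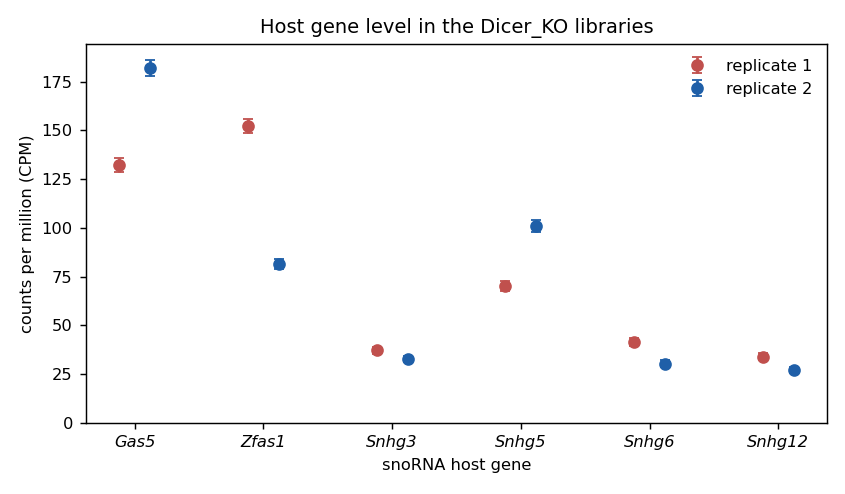
Level of the 6 host genes with a row, in counts per M counts on genes, in replicate 1 (red) and replicate 2 (blue) of Dicer_KO mESCs. Points are the library values and bars their 95% Wilson intervals of counting error. Gas5 and Snhg5 lie higher in replicate 2 (182 and 101 CPM against 132 and 70.2), and Zfas1 lies higher in replicate 1 (152 against 81.4 CPM).

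Levels of different genes were compared per kilobase of merged exons. The order of the mean levels was Snhg5 at 49.4 ± 12.5 counts per kilobase per M (SD, n = 2), Gas5 at 41.8 ± 9.38, Zfas1 at 39.9 ± 17.1, Snhg3 at 35.4 ± 3.20, Snhg6 at 31.3 ± 6.81 and Snhg12 at 12.7 ± 2.04. Neighbours from Snhg5 to Snhg6 were closer to each other than the larger SD of the pair. Snhg12, at 14.2 and 11.3 counts per kilobase per M, lay below the lowest value of Snhg6, 26.5, in both libraries.

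This order depended on which length was used. Per kilobase of the longest transcript that keeps no intron, Gas5 stood first at 236 counts per kilobase per M over 665 bases, followed by Zfas1 at 158, Snhg5 at 85.1 and Snhg3 at 60.1. Over exon bases outside exons of other genes, Snhg3 stood first at 259, but over 135 bases only. Per kilobase of the longest transcript of any kind, Snhg5 was at 70.0, Gas5 at 61.5, Snhg3 at 60.1 and Zfas1 at 50.7. Snhg6 came just above Snhg12, and Snhg12 last, under all 4 lengths, with Snhg12 between 12.7 and 19.9 counts per kilobase per M.

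Of the 17788 genes whose mean reached 10 counts, 39.6% differed by more than 1.5-fold between the libraries. By direction, 23.5% of the 17788 were higher in replicate 1 and 16.1% in replicate 2. Of the 6 hosts, 2 did, Zfas1 higher in replicate 1 and Snhg5 higher in replicate 2. Since the share falls with the level, it was also taken over genes whose mean reached 100 counts, 31.5%, and over the 6594 genes whose mean reached that of the lowest host, 21.7%. The count of 2 among 6 hosts is near that background. Just inside the threshold was Snhg5 at 1.56-fold and just outside was Gas5 at 1.49-fold.

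The median log2 ratio of the 6 hosts was 0.14, with 4 above 0 and 2 below. That of all 17788 genes was 0.02, with 9129 above 0 and 8659 below. After TMM scaling, the ratio's interval left out 0 for 5 of 6 hosts (83.3%), against 87.5% of the genes at or above the count of the lowest host. Counting error was thus smaller than the difference between the libraries for most genes at this level, hosts or not. The signs of all 6 hosts were the same under 3 scalings of the libraries.

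**Figure D2:**
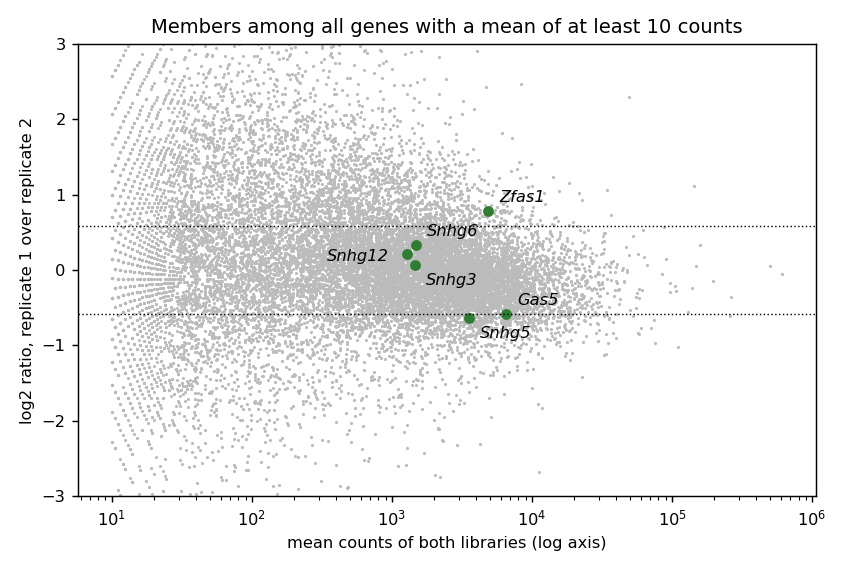
Log2 ratio of replicate 1 over replicate 2 against the mean counts of both libraries (log axis) for genes whose mean reached 10 counts, in grey, with the 6 host genes in green and named. Dotted lines mark 1.5-fold, and genes beyond 3 log2 units are not drawn. The hosts lie within the cloud of all genes, with Zfas1 at 0.78 and Snhg5 at -0.64 outside the dotted lines and Gas5 at -0.58 on the lower one.

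The snoRNAs themselves are short and lack a polyA tail, and their rows were mostly at 0. Of the 32 snoRNA genes inside the 8 hosts, 30 had a row, 25 of these were listed at 0 in both libraries, and 5 had counts. Over all 1525 snoRNA rows, 1221 were at 0 in both libraries (80.1%). A row at 0 limits the reads counted there by this protocol and says nothing of the mature snoRNA.

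The snoRNA with the most counts was Snora73b in Snhg3, with 473 counts in replicate 1 and 397 in replicate 2 and a log2 ratio of 0.13 (-0.07 to 0.33). Its near-copy Snora73a, in the same host, had 73 and 38 counts and a ratio of 0.80 (0.23 to 1.43). Both belong to U17, an H/ACA snoRNA that takes part in cutting the ribosomal RNA precursor, and both were higher in replicate 1, beyond the counting interval for Snora73a alone.

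Snora24, the snoRNA of Snhg8, had 126 counts in replicate 1 and 46 in replicate 2, a log2 ratio of 1.31 (0.83 to 1.85). It gives the only counts found here within Snhg8, which had no row under the identifier used. Whether Snhg8 has a row under an older identifier could not be looked up. Snora16a of Snhg12 had 58 and 38 counts (0.48, -0.13 to 1.12), and Snord87 of Snhg6 had 74 and 80 counts (-0.23, -0.71 to 0.24). The intervals of Snora16a and Snord87 included 0. The interval of Snora24 did not.

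The snoRNAs at 0 included all 9 with a row in Gas5, all 3 in Zfas1, all 8 in Snhg1 and both in Snhg5, together with Snora44, Snora61 and Snord99 in Snhg12. By position, 27 of the 30 rows lie wholly within merged exons of the host, and 25 of these 27 were at 0. The exceptions were Snora24 and Snora16a. Of the other three, Snora73a lies partly within exons and Snora73b and Snord87 lie outside them, and all had counts. Over all snoRNA rows, 101 of 135 lying wholly within an exon (74.8%), 11 of 38 lying partly within exons (28.9%) and 1109 of 1352 lying outside exons (82.0%) were at 0. The annotation behind the counts was an earlier release than the one used for positions, and whether the rule on overlapping regions sets these zeros was not tested.

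By the boxes shown above, 4 of 5 rows with an ACA box had counts, as against 1 of 19 rows with boxes C and D and 0 of 6 rows with neither. Over all 1525 snoRNA rows, 304 had counts. That share was not split by box, so this split has no background beside it. The search windows were set after the sequences had been seen. Among the 4 are the near-copies Snora73a and Snora73b, which may share reads and so may not be separate rows with counts. The ACA-box snoRNAs here are also the longer ones, at 130 to 205 bases, whereas those in which the search found boxes C and D are at most 93 bases long. Snord22 and Snora44, in which it found neither kind, have 126 and 129 bases and were at 0. Snora44 is an H/ACA snoRNA by its name, so the rows with an ACA box are not all the H/ACA rows. Box, length and position within exons moved together over these rows, and their parts were not tested.

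**Figure D3:**
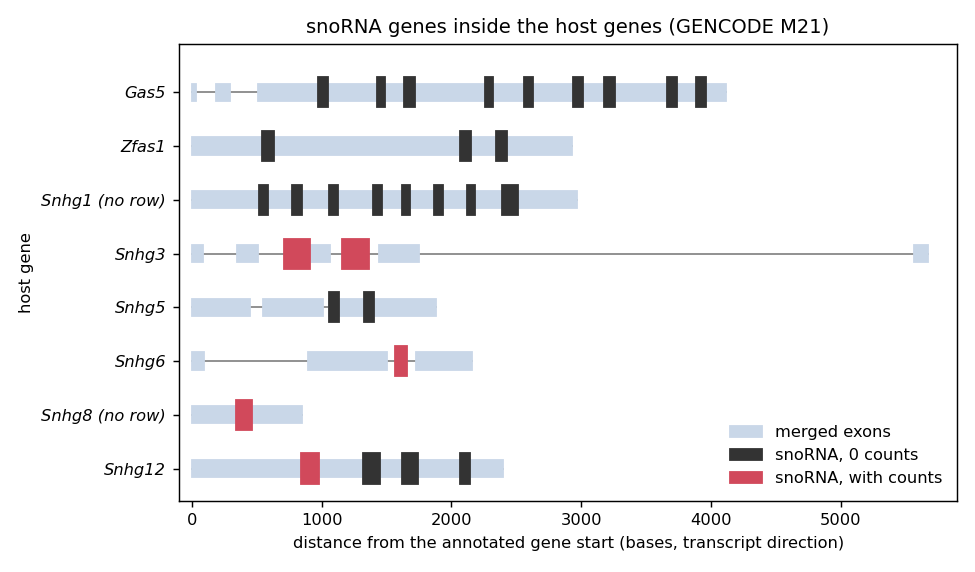
Map of the 8 host genes in transcript direction, in bases from the annotated gene start, with merged exons in light blue and introns as lines. snoRNA genes with a row are black where both libraries were at 0 and red where there were counts. The 5 red snoRNAs lie in Snhg3, Snhg6, Snhg8 and Snhg12, and the 9 of Gas5 and 8 of Snhg1 are all black.

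Some of the hosts have a gene on the other strand whose start lies within 2000 bases of their own. There were 4 such neighbours, for Gas5, Zfas1, Snhg1 and Snhg3. Starts and distances here are from the outermost annotated start of each gene. Slc3a2 starts apart from Snhg1 and runs away from it, whereas the other neighbours start inside the host. Against the downstream Gas5 start shown above, at 161035166, Zbtb37 would instead start apart, since its start is at 161034849. Zbtb37, a zinc finger gene whose start lies 427 bases from that of Gas5, had 2264 counts in replicate 1 and 4861 in replicate 2, a log2 ratio of -1.22 (-1.30 to -1.15) or 2.34-fold higher in replicate 2. Gas5 and Zbtb37 were thus on the same side, Zbtb37 with the larger difference, and their exons share 0 bases.

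Znfx1, a zinc finger gene of the helicase kind whose start lies 81 bases from that of Zfas1, had 6079 and 5916 counts and a log2 ratio of -0.08 (-0.13 to -0.03). Zfas1, at 0.78, did not share that ratio. Slc3a2, the heavy chain of an amino acid transporter, starts 106 bases from Snhg1 and had 10892 and 7823 counts, a ratio of 0.36 (0.31 to 0.40). Snhg1 had no row under the identifier used here to set beside it. Gm17300, which lies wholly inside Snhg3 on the other strand with its start 1914 bases from that of Snhg3, had 46 and 41 counts (0.04, -0.60 to 0.69). Rcc1, which shares the strand of Snhg3, had 3783 and 4840 counts and a ratio of -0.48 (-0.54 to -0.42), on the other side of 0 from the value of Snhg3. The labels name a reverse-stranded protocol but the setting used in counting is not stated, so reads of the exons shared between Zfas1 and Znfx1 and between Snhg3 and Gm17300 may not be separated.

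Other noncoding snoRNA hosts were set beside these 8. Of 14 such genes, 10 had a row and 9 reached a mean of 10 counts. Their median log2 ratio was -0.53, with 2 above 0 and 7 below, and past 1.5-fold 2 were higher in replicate 1 and 2 in replicate 2. The shares over all genes of that mean were 23.5% and 16.1%. The median of the 6 hosts described above was 0.14.

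Snhg15 had 1189 counts in replicate 1 and 1630 in replicate 2, and its ratio of -0.58 was at the value of Gas5. Snhg16 had 720 and 1229 counts (-0.89), and Snhg17 had 1869 and 2479 (-0.53). Snhg11 had 3773 and 5037 counts (-0.54), but the annotation calls it protein coding. These 4 lay on the side of Gas5 and Snhg5. Snhg14, the long host transcript of the Prader-Willi region, had 2830 and 3034 counts (-0.22), and Snhg20 had 567 and 620 (-0.25).

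Higher in replicate 1 were Epb41l4aos, with 937 and 478 counts (0.85), and Snhg18, with 46 and 13 (1.63). Snhg18 is on chromosome 15, whose genes had a median log2 ratio of 0.59 against -0.08 to 0.08 for every other autosome. None of the 8 hosts described above is on chromosome 15. Rian, the imprinted host of a large C/D cluster, had 114 counts in replicate 1 and 13236 in replicate 2 (-6.97), a difference far beyond that of any other host listed here.

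**Figure D4:**
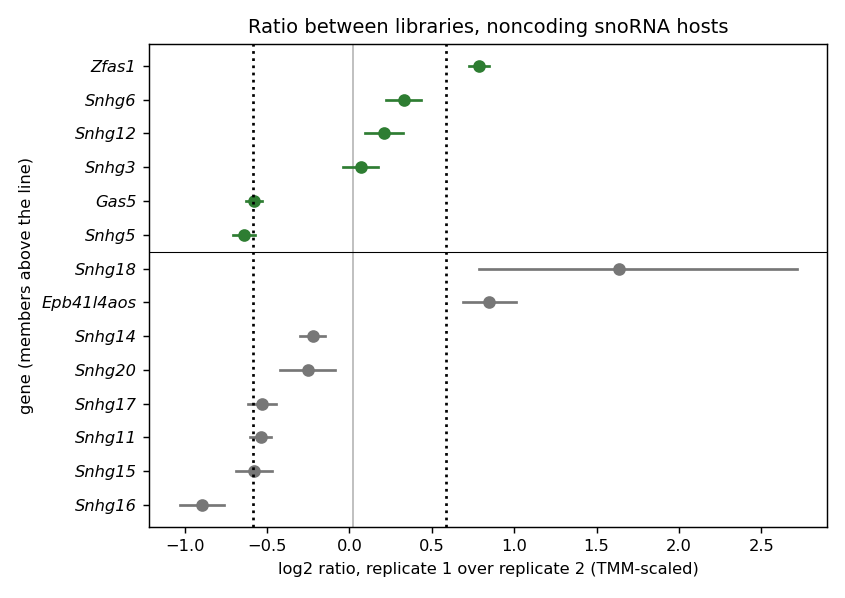
Log2 ratio of replicate 1 over replicate 2 after TMM scaling for the 6 hosts with a row (green, above the line) and the other noncoding hosts whose mean reached 10 counts (grey), with 95% intervals of counting error. Rian (-6.97) is left out of the plot, dotted lines mark 1.5-fold and the grey line the median of all genes. Zfas1 lies highest of the 6 at 0.78 and Snhg5 lowest at -0.64, and 6 of the 8 grey genes lie below 0.

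Lists of genes that act on snoRNAs or on host transcripts were described by their counts and medians. These stand beside the median of 0.02, the 8659 of 17788 genes below 0 and the shares of 23.5% and 16.1% given above. Those shares are over genes whose mean reached 10 counts, and the genes of these lists lie well above that. The share past 1.5-fold either way was 31.5% over genes whose mean reached 100 counts and 21.7% at or above the lowest host. It was not split by direction at those levels. The core proteins of the snoRNA particles had a median log2 ratio of -0.49, with 7 of 8 below 0. Past 1.5-fold, 4 of the 8 were higher in replicate 2 and 0 in replicate 1. They were Nop56 (-0.62) and Nop58 (-0.93), the paired scaffold proteins of box C/D particles, and Nhp2 (-1.11) and Nop10 (-0.60), core proteins of box H/ACA particles. Nhp2 had 2077 counts in replicate 1 and 4107 in replicate 2. The highest of the list was Snu13, the box C/D protein that binds the kink-turn, with 5545 and 4723 counts (0.11), and Snu13 is on chromosome 15.

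The assembly and transport factors had a median of -0.43, with 10 of 12 below 0 and 2 higher in replicate 2 past 1.5-fold. The lowest ratio was that of Nolc1, a nucleolar chaperone of the particles, with 7426 and 14714 counts (-1.11). The highest was that of Rpap3, a cofactor of particle assembly, with 2047 and 1515 counts (0.31), and Rpap3 is also on chromosome 15.

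NMD and exon junction factors, which act on the spliced host RNAs, had a median of -0.37, with 13 of 16 below 0 and 3 past 1.5-fold, all higher in replicate 2. The lowest was Magohb, a subunit of the exon junction complex, with 128 and 375 counts (-1.67). Smg1, the kinase of the NMD factor Upf1, stood at -0.98. The highest was Smg9, a partner of Smg1, with 890 and 577 counts (0.50).

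Of the mTORC1 and TOP factors, 0 of 14 were past 1.5-fold, the median was -0.20 and 13 of 14 were below 0. Some of these lay close to 0, so that count depends on the scaling, and by total counts the median was -0.08. The range ran from Tia1, an RNA-binding protein of TOP mRNAs, at -0.41 with 1829 and 2230 counts, to Eif4ebp1, a translation repressor controlled by mTORC1, at 0.23 with 9727 and 7609 counts.

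Protein-coding hosts of snoRNAs had a median of 0.05, with 14 of 24 above 0, and 4 past 1.5-fold, all higher in replicate 2. These were Ncl (-1.02), Gnl3 (-0.91), Hspa8 (-0.87) and Nop56 (-0.62). Ncl, the abundant nucleolar protein nucleolin, was lowest with 77108 and 143450 counts, and the translation factor gene Eef2 was highest with 182865 and 132858 counts (0.34). Nop56 and Dkc1 stand both in this list and among the core proteins.

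**Figure D5:**
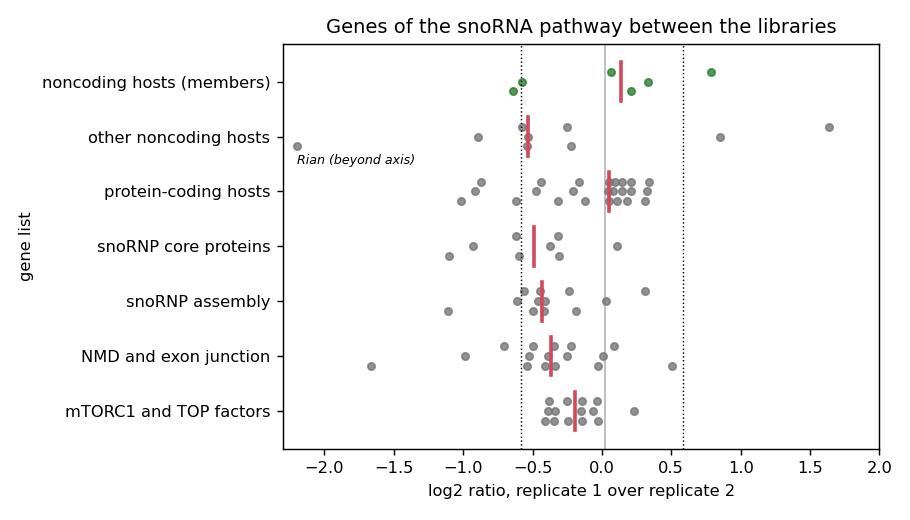
Log2 ratio of replicate 1 over replicate 2 for the genes of each list whose mean reached 10 counts. Points are genes, red bars the list medians, dotted lines 1.5-fold and the grey line the median of all genes. Rian, at -6.97, is drawn at the left edge. The medians run from -0.53 for the other noncoding hosts to 0.14 for the 6 hosts in green.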

How the data were processed

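PolyA RNA of Dicer_KO mESCs was sequenced in 2 libraries, which the labels put in a single group. The authors trimmed reads with Trimmomatic, aligned them to mm10 (GRCm38) with STAR (version 2.4.2a), keeping multiple hits, and ran featureCounts (version 1.4.5-p1) on Ensembl genes. Reads falling where genes overlap were not counted. The deposited files hold the resulting raw counts, a whole number for each gene, not normalized. How multiple hits and strand were treated in counting is not given in the sources used here. The labels give the libraries different passages but do not say whether they come from separate lines. Clonal, passage and technical parts of their spread therefore cannot be told apart, and the SDs are not a measure of technical error alone.

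Gene positions, exons and snoRNA sequences came from GENCODE M21, in which 42548 of the 43629 listed identifiers were found and 1081 were not, and start windows from RefSeq on GRCm38.p6. TMM scaling (edgeR version 4.0.16 in R 4.3.3) multiplied the counts of replicate 2 by 1.09. Ratios used a pseudocount of 1, over genes whose mean reached 10 counts. A fold of 1.5 was the threshold and no p-value was computed. Intervals are at the 95% level, by Wilson for CPM and by exact binomial limits for ratios, computed with scipy (version 1.17.1). The rule named snoRNAs with at least 10 counts in either library, and neighbours with a start within 2000 bases. The snoRNAs at 0 that are named, as examples or exceptions, were added after their values were seen.

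Named genes are the 8 hosts, those snoRNAs and neighbours, Rcc1, which overlaps Snhg3, the other noncoding hosts, the highest and lowest of each other list among genes whose mean reached 100 counts, and Dicer1. Smg1 and the other genes of these lists past 1.5-fold that are named were added after their values were seen. The members and lists were chosen with earlier results of these data known. Alternatives were other scalings, among them the size factors of DESeq2 (version 1.42.0), other pseudocounts, filters, thresholds and lengths, and leaving out a replicate. The steps were tested on simulated data.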

Additional observations from a re-analysis of the deposited data

How the results depend on the processing

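Of 140 alternative values, 31 moved by more than the spread of the value reported or, for a count, by more than 1.5 times, and 109 did not. No host ratio and no list median changed sign. The median of all genes went from 0.02 to -0.01 over genes whose mean reached 100 counts, and it was 0 without a filter, as was that of noncoding hosts by coordinates. The number of neighbours was 3 within 1000 bases instead of 4. The median log2 ratio of the 6 hosts was 0.26 with scaling by total counts instead of 0.14, while the median of all genes went from 0.02 to 0.14, and every host ratio shifted alike, since this scaling multiplies a library by a constant. Relative to all genes the hosts stood as before. The number of hosts past 1.5-fold, 2 as reported, was 1 with scaling by total counts, which put Snhg5 at -0.52 and left Zfas1 at 0.90. The number was 0 at a threshold of 2-fold and 4 at a lower threshold that lies between the folds of Snhg12 (1.16) and Snhg6 (1.26). It was the same 2 with the size factors of DESeq2 and with pseudocounts of 0.1 and 5. Levels per kilobase moved with the length used, in 13 values.

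No paired analysis was possible because the data hold a single group, Dicer_KO, with no other group sharing its replicate numbers. Leaving out a replicate leaves no ratio, and the level without it is that of the other library, 132 or 182 CPM for Gas5 and 152 or 81.4 CPM for Zfas1. Longest transcripts without a kept intron and hosts defined by coordinates were chosen after seeing the data.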

Other observations

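When snoRNA hosts were taken by coordinates instead of by name, 47 rows were noncoding genes with a snoRNA inside on the same strand, and 29 of these reached a mean of 10 counts. Their median log2 ratio of replicate 1 over replicate 2 was -0.21, with 14 above 0 and 15 below. Past 1.5-fold, 6 were higher in replicate 1 and 8 in replicate 2. Protein-coding hosts by coordinates were 273 rows, of which 243 reached that mean. Their median was -0.14, with 96 above 0 and 147 below, and 20 were past 1.5-fold higher in replicate 1 and 46 in replicate 2. For both kinds of host, the shares over all genes of that mean are 23.5% higher in replicate 1 and 16.1% in replicate 2. Snhg9 was close to the limit of detection, with 3 counts in replicate 1 and 4 in replicate 2.

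Among the pluripotency markers, 2 of 8 were past 1.5-fold, both higher in replicate 1, and the median was 0.21. Dppa5a, a marker of naive pluripotency, had 199860 and 84835 counts (1.11), and Zfp42, also called Rex1, had 18808 and 21565 (-0.32). Of the 9 markers of other cell types whose mean reached 10 counts, 3 were higher in replicate 1 past 1.5-fold and 1 in replicate 2. For both sets of markers, the share over all genes of that mean is 39.6%, with 23.5% higher in replicate 1 and 16.1% in replicate 2. Eomes had 334 and 151 counts (1.02) and Pax6 had 164 and 246 (-0.70).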
